A study of Mus musculus with 15 samples.

Results

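The integrated stress response genes described here are 6 regulators whose mRNAs are known for upstream open reading frames (uORFs) and 4 genes that these regulators switch on. The regulators are Atf4, Atf5, Ddit3, Ppp1r15a, Cebpb and Cebpg, called factors below, and the targets are Trib3, Asns, Chac1 and Psat1. The genes were taken by symbol, with every probe set that the array's annotation gives to one of them. This gave 18 probe sets of the 22626 tested (11 for the factors, 7 for the targets) and 10 genes of the 12393 measured.

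When cells lack amino acids, fold proteins badly in the endoplasmic reticulum or meet certain other stresses, kinases phosphorylate the initiation factor eIF2 and most mRNAs are translated less. Some mRNAs with uORFs, short reading frames ahead of the main one, are then translated better, because ribosomes pass or restart beyond the uORFs. ATF4 made in this way enters the nucleus with C/EBP partners and raises the transcription of genes for amino acid supply and of further regulators such as Ddit3 (CHOP) and Trib3. Levels on polysomes, the strings of ribosomes on translated mRNA, therefore bear on the factors in another way than on the targets.

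The arrays measured primary neural stem cells from 6 weeks old female mice (strain given as C57/B16), grown as neurospheres, which are floating clusters of stem and progenitor cells. Cultures were left as controls or given CD95L-T4, a trimerized ligand of the death receptor CD95, and RNA was taken after 48 h as total RNA or as RNA bound to polysomes. Total RNA was measured in 4 control arrays and 4 arrays with the ligand, and polysomal RNA in 4 control arrays and 3 with the ligand. No genetic change is named in any group. Replicates are called biological in the titles, but nothing says that they came from separate animals or culture days. The p-values therefore rest on the variation between these samples, pooled over the 4 groups, and are not known to cover variation between animals. Total RNA came from a column kit and is labelled total RNA, whereas polysomal RNA came from phenol and chloroform and is labelled polyA RNA. Fraction, extraction and type of RNA cannot be told apart. In RNA from whole cultures, fewer cells of a type and less RNA per cell also cannot be told apart.

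Values are log2 signals, and how they were normalized between arrays is not stated. A polysomal value is read here as relative to the other transcripts of that array. Array medians were 6.83 to 6.98, and arrays of a group correlated at 0.994 to 0.998 over all probe sets. Of 8 listed neural stem cell markers, Fabp7, Vim, Sox2 and Nes lay between the 93.1st and 99.8th percentile of probe sets by mean level. Prom1 lay at the 14.1st, and Pax6, Msi1 and Slc1a3 are not given here. Of the 6 microglial markers the highest, Csf1r, lay at the 35.6th percentile. Among 6 listed neuronal markers, Rbfox3, a marker of mature neurons, lay at the 9.04th. Levels of the other neuronal markers and of the listed astrocyte and oligodendrocyte lineage markers are not given. The values shown therefore do not tell how many differentiated cells were present.

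ATF4 and C/EBP proteins bind DNA together at elements with the core TGATGNAA, in which N is any base, while the palindrome TGACGTCA is the classical site of CREB and ATF dimers. The RefSeq promoter windows of all 10 genes (12 windows on GRCm38.p6, from 250 bases before to 50 bases after the gene start) were searched for these letters on both strands. TGATGNAA occurred in 3 of the 4 targets and in 0 of the 6 factors, and in 3.97% of the 32851 mouse windows. TGACGTCA occurred in 1 of the 6 factors, Ppp1r15a, in 0 of the 4 targets and in 1.79% of all windows. The matches are shown because such elements are known binding sites of ATF4 with C/EBP proteins, or of CREB and ATF dimers. Each stretch has 30 bases, is written 5′ to 3′ on the gene's strand, and has the motif in capitals.
Asns: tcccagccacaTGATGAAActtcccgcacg
Chac1: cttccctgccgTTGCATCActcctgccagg
Trib3: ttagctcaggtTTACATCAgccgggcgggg
Ppp1r15a: cgcctctccggTGACGTCAgcacagcgccg
The Asns stretch is chr6:7693214-7693243 (minus strand), with the motif 23 to 16 bases before the gene start. The Chac1 stretch is chr2:119351038-119351067 (plus strand), where the motif reads on the other strand, 193 to 186 bases before the start. In Trib3, at chr2:152344028-152344057 (minus strand), it also reads on the other strand and lies in transcribed sequence, 15 to 22 bases after the start. The Ppp1r15a stretch is chr7:45526262-45526291 (minus strand), with its motif 12 to 5 bases before the start. A match is a description of the letters, and no match says only that these letters are not in this window.

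In control cultures all 6 factors were higher on polysomes than in total RNA, whereas the targets were split, with Trib3 and Chac1 higher and Asns and Psat1 lower. The differences of the factors ran from 0.41 (Cebpg) to 1.86 (Atf5) on the log2 scale, and those of the targets from -0.64 (Psat1) to 0.36 (Chac1). The median difference was 0.95 over the factors, -0.17 over the targets and 0.10 over all genes. By limma (adjusted p under 0.05) 10 of 10 genes were called, against 56.7% of all genes. Rises were called in 33.5% of all genes and falls in 23.2%, so a call alone says little here, and the sizes are given against all genes below. No test compared the factors with the targets, since the genes were picked rather than sampled.

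**Figure D1:**
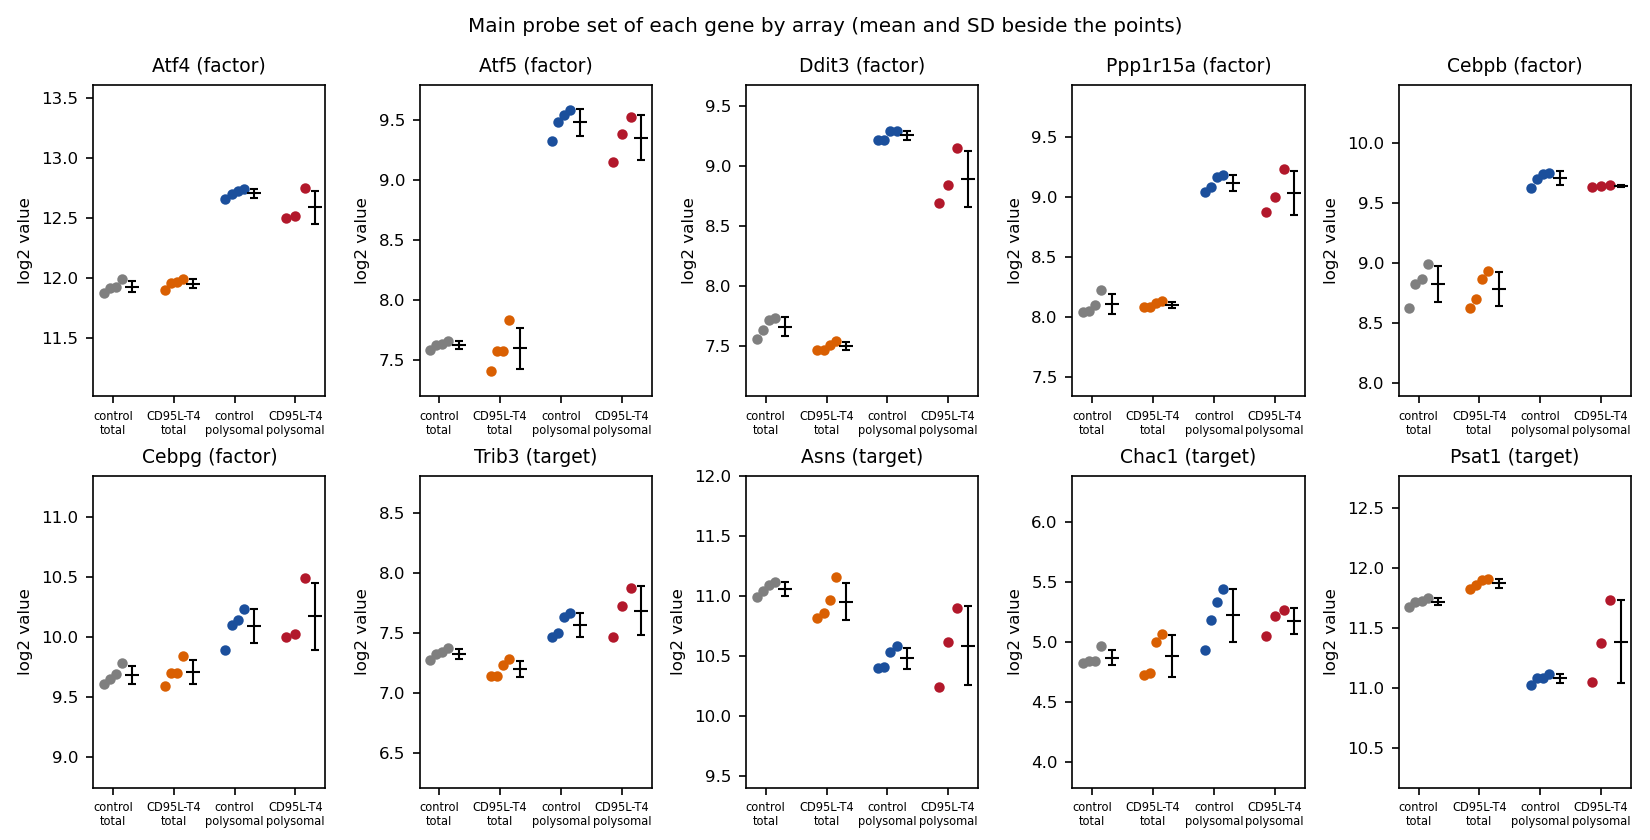
Each panel shows the main probe set of 1 gene, which is its brightest on average over the arrays, with log2 value on the vertical axis and the 4 groups on the horizontal axis. Points are arrays, sorted by value within a group, and bars show mean and SD. All axes span the same log2 range, so the step from total to polysomal RNA in Atf5, Ddit3 and Ppp1r15a can be set beside the downward step in Asns and Psat1.

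Atf5 encodes a bZIP transcription factor related to ATF4, with uORFs that work in the same manner. Its probe set 1425927_a_at read 7.66, 7.62, 7.58 and 7.63 in control total RNA and 9.54, 9.32, 9.58 and 9.48 in control polysomal RNA. The fractions did not overlap, and the gap between them was far wider than the range of either. The difference was 1.86 ± 0.095 (SE, adjusted p = 1.13e-10), or 3.62-fold, which stood at the 99.9th percentile of all genes.

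Ddit3 encodes CHOP, a regulator that takes part in stress-induced cell death and whose uORF holds back its translation in unstressed cells. Its probe set 1417516_at read 7.56, 7.72, 7.63 and 7.73 in control total RNA and 9.29, 9.22, 9.22 and 9.29 in control polysomal RNA. The polysomal arrays agreed closely and all lay above the total arrays. The difference was 1.60 ± 0.084 (adjusted p = 1.38e-10), or 3.02-fold, at the 99.6th percentile.

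Ppp1r15a encodes GADD34, which brings a phosphatase to eIF2 and so ends the response. Probe set 1448325_at read 8.22, 8.05, 8.10 and 8.04 in control total RNA and 9.18, 9.08, 9.16 and 9.04 in control polysomal RNA, with no overlap. It was higher on polysomes by 1.01 ± 0.077 (adjusted p = 5.30e-09), or 2.02-fold, at the 94.9th percentile.

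Atf4 has 3 probe sets, and all of them were higher on polysomes. The brightest, 1448135_at, read 11.99, 11.88, 11.93 and 11.92 in control total RNA and 12.74, 12.73, 12.70 and 12.66 in control polysomal RNA. Its difference was 0.78 ± 0.067 (adjusted p = 2.36e-08), or 1.71-fold, at the 90.8th percentile. The difference was 1.20 ± 0.10 for 1438992_x_at and 0.72 ± 0.079 for 1439258_at, a dim probe set at the 32.1st percentile of level. The probe sets of Atf4 thus differed in size and not in direction.

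The C/EBP factors are bZIP partners of ATF4. Cebpb, whose uORF sets the balance of its long and short protein forms, ran from 8.62 to 8.99 in control total RNA and from 9.62 to 9.75 in control polysomal RNA by 1418901_at. Its difference was 0.88 ± 0.085 (adjusted p = 8.63e-08), and that of its second probe set, 1427844_a_at, was 0.97 ± 0.12. Cebpg ran from 9.61 to 9.78 in control total RNA and from 9.89 to 10.23 in control polysomal RNA by 1425262_at. This was a difference of 0.41 ± 0.10 (adjusted p = 0.00279), at the 79.5th percentile, the smallest of the 6. Of the other Cebpg probe sets, 1451639_at was higher by 0.54 ± 0.12, and the dim 1425261_at gave 0.17 ± 0.098 (adjusted p = 0.146) with groups that overlapped. Of the 11 probe sets of the factors, 10 were higher, against 29.8% of all probe sets, 0 were lower and 1 was not called.

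Among the targets, Asns encodes asparagine synthetase and carries a well-studied amino acid response element in its promoter, shown above. Probe set 1433966_x_at read 11.04, 11.12, 10.99 and 11.09 in control total RNA and 10.40, 10.41, 10.53 and 10.58 in control polysomal RNA. Every polysomal array lay below every total array, and the difference was -0.58 ± 0.11 (adjusted p = 0.00025), at the 12.4th percentile. The second probe set, 1451095_at, gave -1.07 ± 0.10 (adjusted p = 7.17e-08), so the size depended on the probe set and the direction did not. The suffix x in a probe set name marks probes that may also match other transcripts.

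Psat1 encodes phosphoserine aminotransferase, an enzyme of serine synthesis. Probe set 1451064_a_at read 11.73, 11.72, 11.75 and 11.68 in control total RNA and 11.03, 11.09, 11.12 and 11.09 in control polysomal RNA. The difference was -0.64 ± 0.10 (adjusted p = 3.52e-05), at the 11.1st percentile, and 1454607_s_at gave -0.43 ± 0.13 (adjusted p = 0.0109). As with Asns, no array of one fraction reached the range of the other.

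Trib3 encodes a pseudokinase that is induced by ATF4 and CHOP and binds ATF4. Probe set 1456225_x_at ran from 7.27 to 7.37 in control total RNA and from 7.46 to 7.66 in control polysomal RNA, a difference of 0.24 ± 0.083 (adjusted p = 0.0222). This call was lost (adjusted p = 0.058 to 0.070) without control total replicate 4, control polysomal replicate 3 or control polysomal replicate 4, while 1426065_a_at gave 0.35 ± 0.095 (adjusted p = 0.0049). Chac1, which encodes an enzyme that breaks down glutathione, was dim in every group, at the 30.3rd percentile of level. Probe set 1451382_at ran from 4.82 to 4.96 in control total RNA and from 4.93 to 5.44 in control polysomal RNA, with overlap, and its difference was 0.36 ± 0.11 (adjusted p = 0.00827). The intervals of Chac1 (0.13 to 0.58) and Cebpg (0.19 to 0.63) overlapped, so the order of the lowest factor and the highest target was not resolved.

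**Figure D2:**
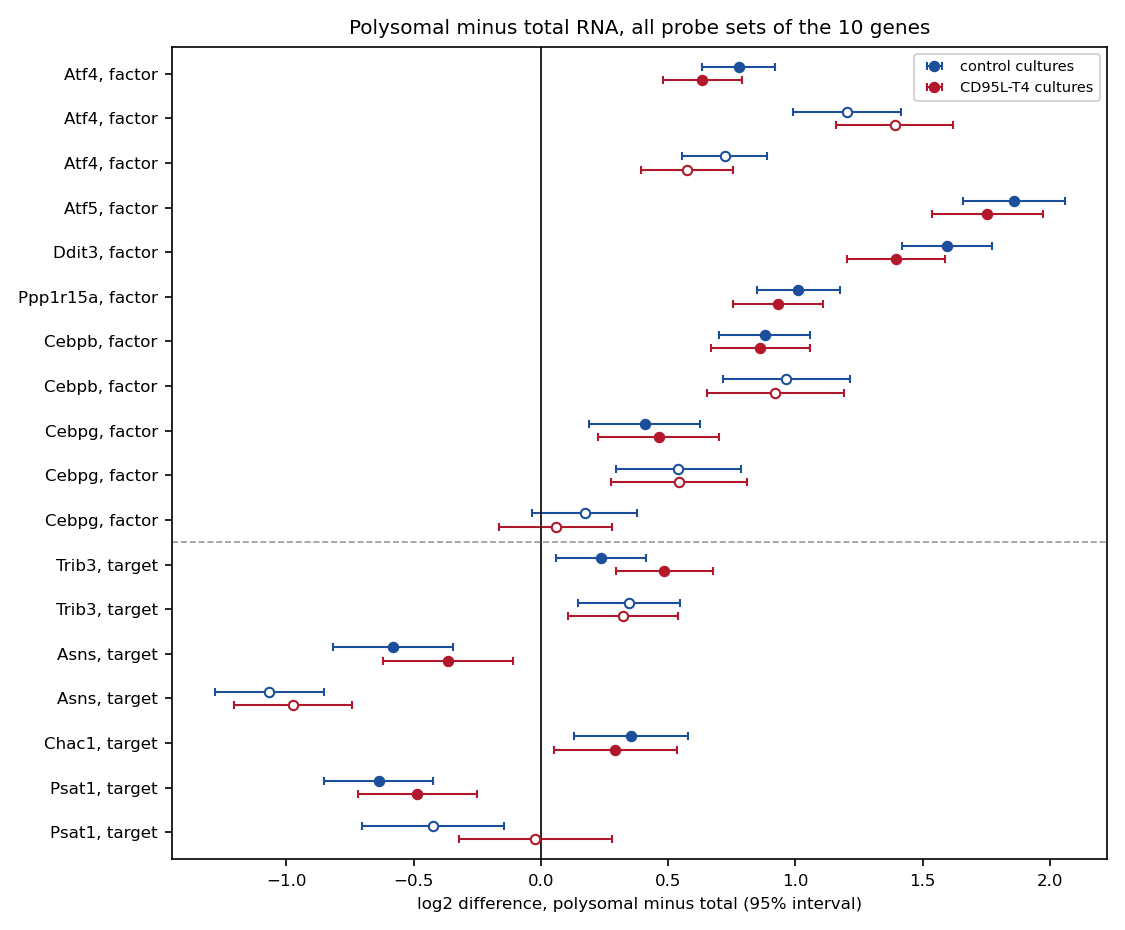
Points are log2 differences, polysomal minus total RNA, for the 18 probe sets, with 95% intervals from limma, in control cultures (blue) and CD95L-T4 cultures (red). Filled points are the main probe set of a gene and open points are its others, listed in order of the factors and then, under the dashed line, the targets. All probe sets of the factors lie to the right of 0, with the interval of 1 Cebpg probe set reaching over it, and those of Asns and Psat1 lie to the left. In CD95L-T4 cultures Psat1 by 1454607_s_at lies close to 0, at -0.0225, with an interval of -0.32 to 0.28.

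In cultures given CD95L-T4 the same 6 factors, Trib3 and Chac1 were higher on polysomes and Asns and Psat1 lower. By limma 10 of 10 genes were called, against 51.4% of all genes, with 29.6% higher and 21.8% lower. The median difference was 0.90 over the factors, -0.036 over the targets and 0.073 over all genes. The factors were higher by 1.76 ± 0.10 (Atf5), 1.40 ± 0.091 (Ddit3), 0.93 ± 0.084 (Ppp1r15a), 0.86 ± 0.092 (Cebpb), 0.64 ± 0.073 (Atf4) and 0.46 ± 0.11 (Cebpg), with adjusted p of 9.12e-10 to 0.00206. Trib3, at 0.49 ± 0.090 (adjusted p = 0.000187), here stood beside Cebpg by main probe sets. The second probe set of Trib3, 1426065_a_at, gave 0.32 ± 0.10 (adjusted p = 0.0131). Cebpg gave 0.54 ± 0.13 by 1451639_at and 0.058 ± 0.11 (adjusted p = 0.682) by the dim 1425261_at. The CD95L-T4 arrays are not shared with the control comparison.

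The falls of the targets were less uniform in these cultures. Asns by 1433966_x_at read 11.16, 10.97, 10.82 and 10.86 in CD95L-T4 total RNA and 10.90, 10.24 and 10.62 in CD95L-T4 polysomal RNA, so that polysomal replicate 1 lay within the range of the total arrays. Its difference was -0.37 ± 0.12 (adjusted p = 0.0172), which became -0.19 (adjusted p = 0.142) without polysomal replicate 2 and -0.30 (adjusted p = 0.0575) without total replicate 1. By 1451095_at Asns was lower without overlap, by -0.97 ± 0.11. Psat1 was lower by 1451064_a_at, at -0.49 ± 0.11 (adjusted p = 0.00119), but 1454607_s_at gave -0.022 ± 0.14 (adjusted p = 0.912). That second probe set was not called in these cultures, where it had been in control cultures, and the difference between the cultures was 0.40 ± 0.19 (adjusted p = 0.897). Chac1 gave 0.29 ± 0.11 (adjusted p = 0.0398) with overlapping groups. Its call was lost (adjusted p = 0.10 to 0.13) without CD95L-T4 total replicate 1 or 4 or CD95L-T4 polysomal replicate 2 or 3.

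The study asked what CD95L-T4 does to neural stem cells after 48 h, and in total RNA none of the 10 genes passed the test. By limma 0 of 10 genes were called (adjusted p = 0.997 for each), against 0% of all genes, and at an unadjusted p under 0.05 there were 0 of the 10 and 426 genes in all, 3.44%. Differences of the main probe sets, CD95L-T4 minus control, ran from -0.16 (Ddit3) to 0.16 (Psat1). The largest fold inside any of their 95% intervals was 1.29.

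Ddit3 in total RNA read 7.51, 7.47, 7.54 and 7.47 with CD95L-T4, all below the control range of 7.56 to 7.73. The difference was -0.16 ± 0.084, and 0.96% of all genes had CD95L-T4 arrays that were all below the control arrays. Psat1 by 1451064_a_at read 11.86, 11.83, 11.90 and 11.91, all above the control range of 11.68 to 11.75 (0.16 ± 0.10), as did 1.78% of genes. This SE pools the 4 groups. The SD was 0.029 in control total, 0.037 in CD95L-T4 total and 0.35 in CD95L-T4 polysomal RNA. Under no alternative run of limma was the difference called (lowest adjusted p = 0.805). The other Psat1 probe set gave -0.19 ± 0.13 with overlapping groups, so the probe sets of Psat1 pointed in opposite directions. Atf4 likewise gave 0.025 ± 0.067 by its main probe set and -0.27 ± 0.10 by 1438992_x_at (adjusted p = 0.997).

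On polysomes 0 of 10 genes were called by limma after CD95L-T4, against 0% of all genes. At an unadjusted p under 0.05 there were 2 of the 10, Ddit3 and Psat1, and 9.49% of all genes (1176). Ddit3 read 8.69, 9.15 and 8.84 with CD95L-T4, all below the control range of 9.22 to 9.29. The difference was -0.36 ± 0.091, a 1.28-fold lower level (interval -0.55 to -0.17, adjusted p = 0.466). Groups that did not overlap, with CD95L-T4 lower, occurred in 2.95% of genes on polysomes, and in both fractions in 13 genes, 0.105%. Ddit3 thus had the order control polysomal, CD95L-T4 polysomal, control total, CD95L-T4 total, without overlap between neighbours, and the steps between treatments did not pass the test.

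Psat1 on polysomes moved the other way, with 11.74, 11.05 and 11.38 after CD95L-T4 and 11.03 to 11.12 in controls. Replicates 1 and 3 were above all controls and replicate 2 was among them, and the difference was 0.31 ± 0.11 (adjusted p = 0.475). The other 8 genes differed by -0.13 to 0.12. The median was -0.10 over the factors, 0.11 over the targets and 0.0025 over all genes. The largest fold within any 95% interval of the 10 was 1.47.

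**Figure D3:**
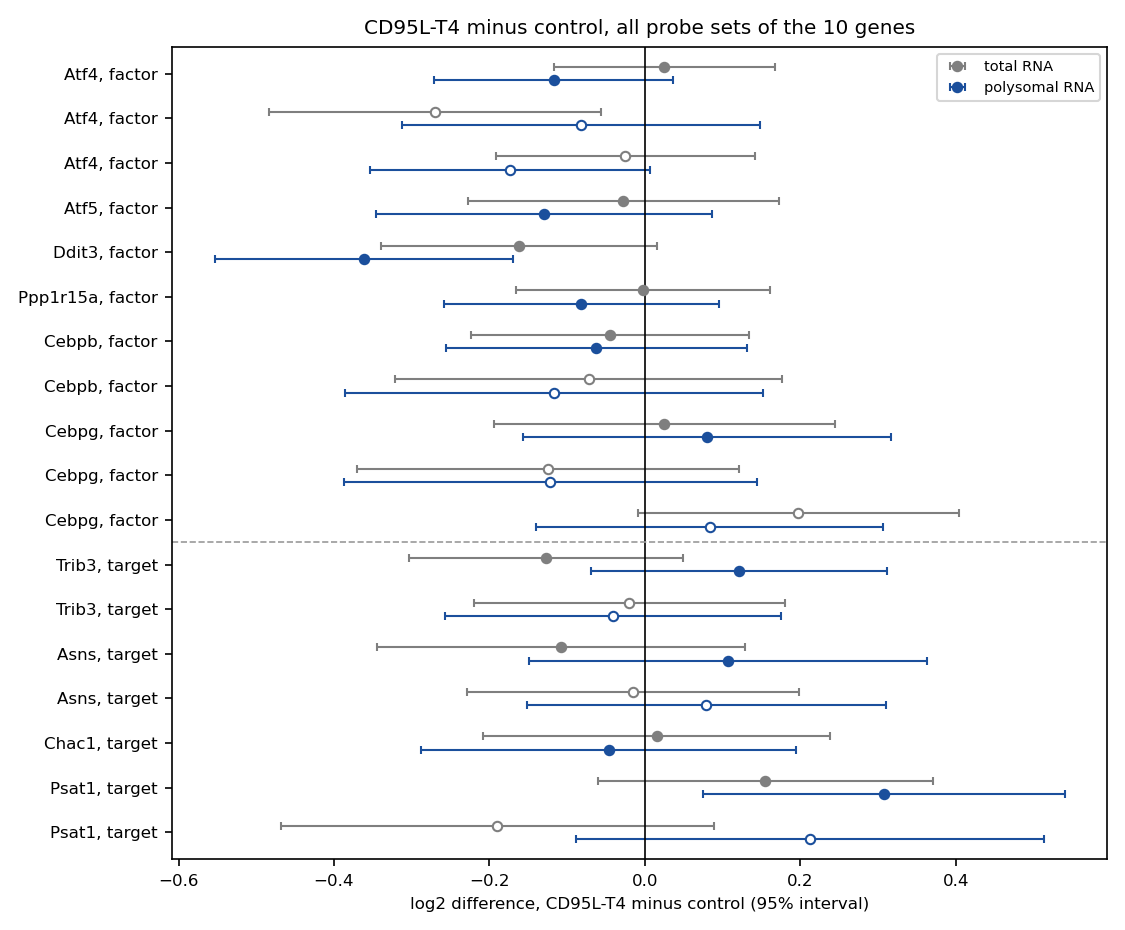
Points are log2 differences, CD95L-T4 minus control, of the 18 probe sets with 95% intervals from limma, in total RNA (grey) and polysomal RNA (blue). Filled points are main probe sets. Most intervals cover 0. Those of Ddit3 (-0.36) and of 1 Psat1 probe set (0.31) on polysomes, and of 1 Atf4 probe set in total RNA (-0.27), do not, before adjustment over all probe sets.

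The CD95L-T4 polysomal arrays were not alike, and among these 3 arrays this moved with the values of Ddit3 and Psat1. How far an array stood from total RNA was measured over all probe sets as its slope on the difference between control polysomal and control total RNA, with an array's own values left out. CD95L-T4 polysomal replicates 1, 2 and 3 had slopes of 0.85, 0.99 and 0.91, and the control polysomal arrays had slopes of 0.93 to 1.04. Over that range of slopes the control polysomal arrays stayed at 9.22 to 9.29 in Ddit3 and at 11.03 to 11.12 in Psat1. CD95L-T4 polysomal replicates 1 and 3, the nearest to total RNA, were also lowest in Ddit3 and highest in Psat1. Replicate 2 differed from the others in its added poly-A control transcripts, at a mean of 9.71 against 8.05 and 8.19, and replicate 3 in the gap between the 3′ and 5′ probe sets of actin, at 1.03 against 0.59 and 0.68. Their part in these results was not tested.

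With every polysomal array brought to the same separation, a step chosen after the data had been seen, Ddit3 differed by -0.29 (adjusted p = 0.425) and Psat1 by 0.31 (adjusted p = 0.478). Without CD95L-T4 polysomal replicate 2, Ddit3 differed by -0.49 (adjusted p = 0.0092) and Psat1 by 0.48 (adjusted p = 0.00935). In that run limma called 1386 probe sets in all, 6.13%. Without any other array of these groups, 0 of the 10 genes were called, against 0% of all probe sets.

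**Figure D4:**
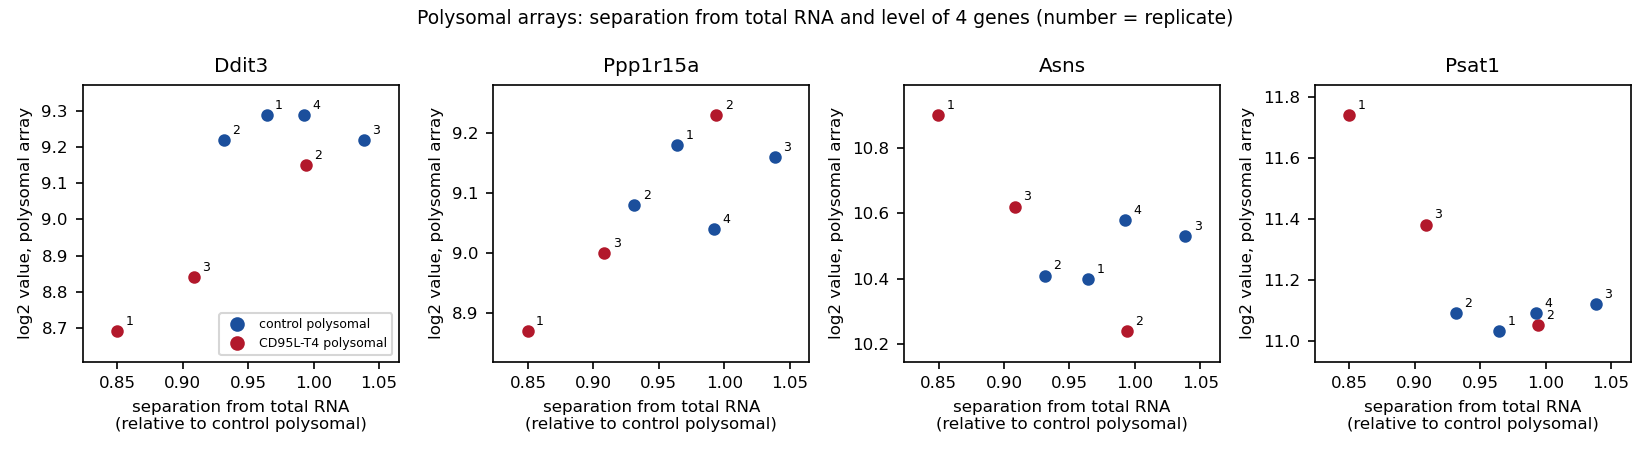
Each panel plots the log2 value of 1 gene on the polysomal arrays against the array's separation from total RNA (horizontal axis, a slope without unit, relative to the control polysomal arrays). Numbers are replicates, with control polysomal in blue and CD95L-T4 polysomal in red. CD95L-T4 replicate 1, at 0.85, has the lowest Ddit3 and Ppp1r15a and the highest Asns and Psat1 of the 7 arrays. The panels show a selection of the genes, and others differed. Trib3, which was also higher on polysomes than in total RNA, was highest in CD95L-T4 replicate 1 (7.87). Cebpg was highest in CD95L-T4 replicate 3 (10.49).

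The effect of CD95L-T4 on polysomal RNA was set against that in total RNA as an interaction. By limma 0 of 10 genes were called, against 0% of all genes, and at an unadjusted p under 0.05 there were 0 of the 10 and 3.99% of all genes. By main probe sets the interaction ran from -0.20 (Ddit3) to 0.25 (Trib3), with a median of -0.091 over the factors and 0.18 over the targets. With equal separation of the polysomal arrays Atf5 (0.016) and Cebpb (0.042) changed sign. No medians were taken at that setting, and the part of separation in them was not tested. Trib3 had values of 7.23, 7.14, 7.14 and 7.28 in CD95L-T4 total RNA and 7.87, 7.46 and 7.72 in CD95L-T4 polysomal RNA. Its interaction was 0.25 ± 0.12 (adjusted p = 0.897), and its second probe set gave -0.021 ± 0.14. The largest fold inside a 95% interval was 1.48 for the main probe sets and 1.76 for all 18, where Psat1 by 1454607_s_at reached 0.40 ± 0.19.

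The other genes of the pathway were counted in lists written for this purpose, and the genes with the smallest p in a list are named. Of 39 measured ATF4 targets outside the 4 described (43 listed), 8 were higher and 21 lower on polysomes in control cultures, with a median of -0.42 against 0.10 over all genes. Of all genes 33.5% were higher and 23.2% lower, which is the background for each of the lists. The smallest p belonged to Aars (-1.43 ± 0.066) and Lars (-0.99 ± 0.062), tRNA synthetases for alanine and leucine, and to Eif4ebp1 (1.44 ± 0.088), an inhibitor of cap-dependent initiation. Grouped by product after values had been seen, 10 of 10 tRNA synthetases were lower (-1.43 to -0.47), as were 6 of 9 amino acid transporters (1 higher) and 4 of 9 metabolic enzymes (1 higher). Of the 11 regulators, secreted proteins and others, 6 were higher and 1 lower, with a median of 0.68. Nupr1, a small stress-induced nuclear protein, was the highest, at 1.79 ± 0.13.

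Among 14 of 17 listed genes of eIF2, its kinases and their helpers, 0 were higher and 6 lower on polysomes in control cultures (median -0.073). The smallest p belonged to Dnajc3 (-1.27), an ER-lumen co-chaperone known as an inhibitor of eIF2 kinases, Eif2ak3 (-0.78), the ER stress kinase PERK, and Eif2ak2 (-0.90), the kinase PKR that double-stranded RNA activates. Of 14 of 17 other mRNAs known for uORFs, 5 were higher and 6 lower (median 0.07). Bace1, the beta-secretase, stood at -1.50, Atf3, a stress-induced bZIP factor, at 0.79 and Fmr1, an RNA-binding protein, at -0.81. For these uORF mRNAs the share higher (5 of 14) was near the 33.5% of all genes. The share lower (6 of 14) was above the 23.2% of all genes. No test compared these mRNAs with the 6 factors. Of 20 targets of ATF6 and XBP1, the other arms of the ER stress response, 2 were higher and 16 lower (median -1.07), among them Pdia6 (-1.83), Hspa5 (-1.55) and Sel1l (-1.85), which act in protein folding and disposal in the ER. Some genes are in more than 1 list.

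**Figure D5:**
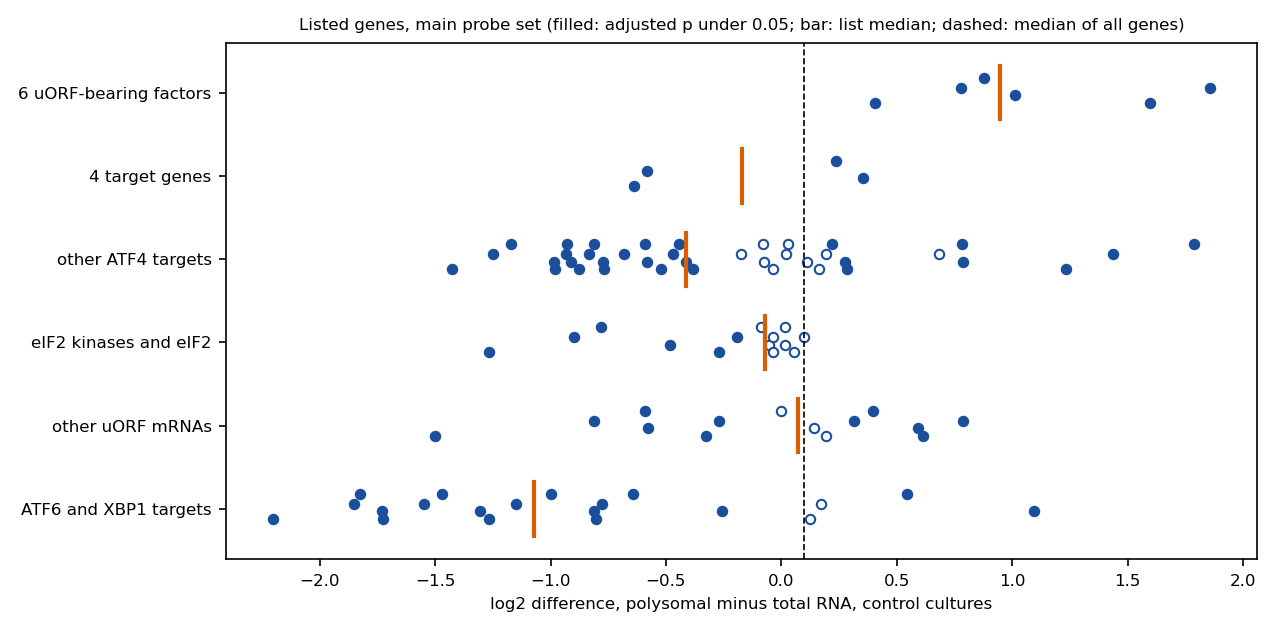
Points are genes by main probe set, with the log2 difference polysomal minus total RNA in control cultures on the horizontal axis and the list on the vertical axis. Filled points have adjusted p under 0.05, orange bars are list medians and the dashed line is the median of all genes (0.10). All 6 factors lie to the right of that line, the 4 targets on both sides, and 16 of the 20 ATF6 and XBP1 targets are called lower.

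In CD95L-T4 cultures the counts on polysomes were 9 higher and 21 lower of the 39 ATF4 targets, 0 and 5 of the eIF2 genes, 5 and 5 of the other uORF mRNAs, and 2 and 16 of the ATF6 and XBP1 targets. Of all genes 29.6% were higher and 21.8% lower in these cultures. The count of eIF2 genes higher became 2 after quantile normalization or with equal medians. It became 1 without the 25% dimmest probe sets, with equal separation, or without CD95L-T4 polysomal replicate 2 or 3. After CD95L-T4 limma called 0 genes of these lists in total RNA and 0 in polysomal RNA. At an unadjusted p under 0.05 there were 1 ATF4 target in total RNA and 11 on polysomes, and 1 eIF2 gene, 1 uORF mRNA and 3 ATF6 and XBP1 targets on polysomes. The share of all genes was 3.44% in total RNA and 9.49% on polysomes. Nupr1 gave -0.35 ± 0.13 in total RNA (adjusted p = 0.997) and -0.53 ± 0.14 on polysomes (adjusted p = 0.466). On polysomes Gpt2, an aminotransferase, gave 0.30 ± 0.088 and Eif4ebp1 -0.28 ± 0.095 (adjusted p = 0.473 and 0.474). Without CD95L-T4 polysomal replicate 2, 3 ATF4 targets were called higher and 4 lower, with 1 eIF2 gene higher and, of the uORF mRNAs, 1 higher and 1 lower, while 6.13% of all probe sets were called.

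Whether arrays of a group with more Atf4 mRNA also had more of its targets was asked with the Atf4 level as a covariate beside the group means. By limma 529 probe sets were called, 2.34% of all, and of the members Asns was called with both probe sets, at slopes of -2.19 ± 0.42 (adjusted p = 0.0284) and -1.80 ± 0.43 (adjusted p = 0.044). In deviations from group means, Asns by 1433966_x_at correlated with Atf4 at -0.72 over the 8 total RNA arrays and at -0.94 over the 7 polysomal arrays. For 1451095_at these values were -0.071 and -0.94, so that its relation lay in the polysomal arrays. In CD95L-T4 polysomal replicates 1, 2 and 3 Atf4 read 12.50, 12.75 and 12.52, the same order as their separation from total RNA (0.85, 0.99 and 0.91). The control polysomal arrays did not have that order. Separation was not in the model, and its part in the Atf4 slopes was not tested. By main probe sets the other targets were not called: Psat1 at -1.58 ± 0.49 (adjusted p = 0.089), Trib3 at -1.13 ± 0.42 (0.149) and Chac1 at 0.22 ± 0.66 (0.902). Among the factors, Ppp1r15a had a slope of 1.23 ± 0.35 (adjusted p = 0.0694) and Cebpg by 1451639_at one of -1.86 ± 0.56 (0.0825). By main probe sets Atf5 and Ddit3 also had positive slopes, and Cebpb and Cebpg negative ones, none of them called. The count rested on few arrays. It was 0 without CD95L-T4 polysomal replicate 2, 6 without replicate 1 of that group, 56 without control polysomal replicate 4 and 1001 without control total replicate 1. It was 163 to 347 without CD95L-T4 total replicate 3 or 4, control total replicate 3 or 4, or control polysomal replicate 1, 2 or 3. It was 32 in total RNA alone and 3 in polysomal RNA alone.

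With the Trib3 level as covariate, 51 probe sets were called, 0.225% of all, and 0 of the members. Their smallest adjusted p was 0.0598 (Asns by 1451095_at, slope 1.16 ± 0.26). Leaving out 1 array gave 0 calls for 13 of the 15 arrays, and 311 and 414 without CD95L-T4 total replicates 2 and 4. By the correlation of deviations from group means over the 15 arrays, the genes most like Atf4 were Mrps14 (r = 0.96), Smo, Ptdss2, Dynlt1f and Tha1 (0.93), and those most like Trib3 were Lhpp (0.96), Apex1, Dazap1, Flywch1 and Plekhb2 (0.93). These points share arrays and processing, and r was above 0.5 for 14.5% of all genes with Atf4 and for 15.4% with Trib3.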

How the data were processed

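The deposited table holds log2 probe set values of 15 Affymetrix mouse arrays. How the authors summarised them and scaled them between arrays is not given in the sources used here. The values have 2 decimals, and array medians ran from 6.83 to 6.98. Groups were read from sample titles, since the treatment label of treated samples names only the cells. Without the 64 control probe sets of Affymetrix, 22626 were tested: 20380 had 1 gene, 691 several and 1555 none. The array annotation gave the symbols, and 12369 of 12393 genes were found in the reference gene table.

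A limma 3.58.1 fit (R 4.3.3) took 1 mean per group over all 15 arrays, with empirical Bayes moderation (prior of 5.78 degrees of freedom). Tests were two-sided and adjusted by Benjamini-Hochberg over all probe sets at 0.05. Errors are moderated standard errors unless SD is given. They pool the spread of the 4 groups for each probe set, and group spreads could differ widely. Asns by 1451095_at had an SD of 0.026 in control total and 0.31 in CD95L-T4 polysomal RNA. Precision is limited by the number of arrays. The steps were tested on simulated data. Alternatives were other scalings, a filter on dim probe sets, the compared groups alone, a trended robust variance, a replicate block, the mean of a gene's probe sets and leaving out each array. Equal separation of the polysomal arrays and the list counts under alternatives were added after seeing the data. The 10 genes, the lists and the rule for named genes (all members, and in each list the 3 genes of smallest p) were chosen with earlier results of these data known. Outside that rule Nupr1 in the control fraction comparison was named after its value was seen. Promoter windows are RefSeq's. The uORF sequences were not analysed here.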

Additional observations from a re-analysis of the deposited data

Results flagged for a closer look

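Of the 54 sets of 4 arrays examined (18 probe sets in the 3 groups with 4 arrays), 2 held an array far from the other arrays of its group by Dixon's test, where chance marks about 1 in 20. Cebpb by 1427844_a_at read 8.13 in control polysomal replicate 1, against 8.23 to 8.24 in the other control polysomal arrays. Chac1 by 1451382_at read 4.96 in control total replicate 3, against 4.82 to 4.84. The group of 3 CD95L-T4 polysomal arrays is too small for this test.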

How the results depend on the processing

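The fraction comparisons kept the direction of all 10 genes under every alternative run. Without 1 array the count called stayed between 9 and 10 (control) and 8 and 10 (CD95L-T4). Of all 22626 probe sets, the same runs called 11761 to 12293 (control) and 11039 to 11391 (CD95L-T4), so these counts alone say little. In CD95L-T4 cultures, Asns was not called with equal array medians (adjusted p = 0.0523) or with only the compared groups (0.0663), Chac1 not with the compared groups (0.0588) or a trended robust variance (0.0513), and Psat1 not as the mean of its probe sets (-0.25, adjusted p = 0.057). After CD95L-T4 the count without 1 array stayed at 0 in total RNA and for the interaction, where 0 and 0 to 2 of all probe sets were called. In polysomal RNA it was 0 to 2, with 2 only without CD95L-T4 polysomal replicate 2. That run called 1386 probe sets in all, 6.13%.

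Psat1 in total RNA (0.16 by its main probe set) became -0.0175 as the mean of its probe sets. Other uncalled differences that changed sign were, in total RNA, Ppp1r15a (0.00625) and Chac1 (-0.020) after quantile normalization, Chac1 (-0.00125) with equal medians, and Atf4 (-0.09) as the mean of probe sets. For the interaction they were Cebpg as the mean of probe sets (-0.019) and Atf5 (0.016) and Cebpb (0.042) with equal separation of the polysomal arrays. Without 1 array the total RNA differences ranged from -0.106 to 0.034 (Atf5), -0.023 to 0.037 (Ppp1r15a), -0.1125 to 0.011 (Cebpb), -0.019 to 0.064 (Cebpg) and -0.045 to 0.068 (Chac1). The polysomal ones ranged from -0.08 to 0.165 (Cebpg), -0.05 to 0.28 (Asns) and -0.143 to 0.027 (Chac1), and the interaction from -0.1775 to 0.0025 (Ppp1r15a), -0.073 to 0.05 (Cebpb), -0.105 to 0.14 (Cebpg), -0.158 to 0.012 (Chac1) and -0.0225 to 0.3225 (Psat1). None of these values was called, and the cause of the changes was not tested.

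The probe sets called on the Atf4 slope (529) became 998 without the 25% dimmest probe sets, 32 in total RNA, 3 in polysomal RNA and 0 to 1001 without 1 array. Those on the Trib3 slope (51) became 421 without the dimmest, 0 after quantile normalization, with equal medians and in total RNA, 2 in polysomal RNA and 0 to 414 without 1 array.

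Replicate numbers gave no sign of pairing. Same-numbered arrays correlated at -0.23 to 0.20 in their deviations from group means, and 5 of 28 comparisons found an array closest to its own number. The labels do not say whether same-numbered arrays share a culture, and so few arrays cannot settle it. With a replicate block the genes called were 0, 0, 0, 10 and 10 for total, polysomal, interaction and the control and CD95L-T4 fraction comparisons. The share of all genes called at that setting is not given here. Chac1 then changed sign on polysomes (0.027) and in the interaction (0.012), and the slope counts were 6 (Atf4) and 0 (Trib3). Scaling moved the median of all genes by at most 0.093 in log2. Signals of Chac1, Atf4 by 1439258_at and Cebpg by 1425261_at were dim, at the 30.3rd, 32.1st and 33.9th percentile of level.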

Other observations

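Ddit4, an inhibitor of mTORC1 and an ATF4 target, had the smallest interaction p among the other ATF4 targets. Its mean log2 value was 8.11 in control total, 7.43 in CD95L-T4 total, 8.79 in control polysomal and 9.53 in CD95L-T4 polysomal RNA. The interaction was 1.43 ± 0.56 (adjusted p = 0.897).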
